A study of Mus musculus with 375 samples.

Results

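Fabp1 and Fabp2, which encode the liver-type and the intestinal-type fatty acid binding protein, are 2 of the 23420 genes measured in single cells from the mouse small intestine. They were chosen by measured values, namely the difference in mean Fabp1 between the diets in these cells. The study sorted Lgr5+ cells, which carry a marker of intestinal stem cells, by flow cytometry from mice on control food or on a high-fat diet (HFD), and read the RNA of each cell with Smart-seq2, in which cDNA is copied over the length of the transcript in separate wells. The titles name 4 sets: control 1 with 94 cells, control 2 with 94, HFD 1 with 93 and HFD 2 with 94. Both diets share the sort for Lgr5, and the strain, age and sex of the mice, the make-up and length of the diet, and how Lgr5 was read in the sort were not given in those sources that were used. Of the 375 cells, the 367 with at least 2000 genes above 0 TPM were used, 93, 91, 91 and 92 per set. TPM, the unit of all levels here, scales the transcripts of each cell to the same total and corrects for gene length, so that levels of both genes can be set side by side.

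Fatty acid binding proteins are small cytosolic proteins that hold long-chain fatty acids inside a barrel-shaped fold and carry them between membranes and enzymes. In the small intestine both are known as abundant products of absorptive enterocytes, the cells that take up dietary fat, and Fabp1 is also made in the liver. Transcription of Fabp1 is known to respond to the fatty acid sensing nuclear receptors of the PPAR family, which bind DNA together with RXR at a repeated AGGTCA motif, while Fabp2 is used as a marker of intestinal differentiation.

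Fabp1 (ENSMUSG00000054422.7) lies on chromosome 6, from 71199827 to 71205023 on the plus strand of GRCm38 in GENCODE M21. Fabp2 (ENSMUSG00000023057.5) lies on chromosome 3, from 122895072 to 122899506, also on the plus strand. Each is a protein-coding gene with 1 annotated transcript of 4 exons. The promoters are shown because the genes behaved differently between the diets while both are known as fatty acid carriers of the same cells. The sequences are RefSeq's for GRCm38.p6, which held both genes, and end before the first transcribed base of either annotation. Fabp1 covers chr6:71199629-71199826 and Fabp2 covers chr3:122894822-122895071, both on the plus strand, and capitals mark a match to the AGGTCA repeat.
Fabp1: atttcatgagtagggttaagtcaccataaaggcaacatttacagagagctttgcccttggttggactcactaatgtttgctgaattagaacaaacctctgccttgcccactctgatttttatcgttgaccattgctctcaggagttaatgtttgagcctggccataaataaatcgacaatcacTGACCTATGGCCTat
Fabp2: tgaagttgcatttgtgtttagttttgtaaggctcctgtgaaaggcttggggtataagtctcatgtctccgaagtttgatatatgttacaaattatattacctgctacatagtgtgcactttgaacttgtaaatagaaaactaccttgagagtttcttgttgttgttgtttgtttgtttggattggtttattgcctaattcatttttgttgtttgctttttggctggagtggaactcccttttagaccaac
The repeat searched was AGGTCA followed, after 1 base of any kind, by AGGTCA in the same direction, on both strands and with up to 2 mismatches. In the Fabp1 window it matched once, with 1 mismatch, on the minus strand from position -67 to -55 counted from the RefSeq start. No match was found in the Fabp2 window. Of all 32851 RefSeq promoter windows of 300 bases, 3.86% held such a match. The motif AGGTCA by itself matched 2 times in the Fabp1 window, of which 1 lies within the repeat, and 16.3% of all windows held it. GTTAAT, the core of sites for HNF1 factors, matched once in Fabp1 at position -107, against 7.10% of all windows. TATAAA matched once in Fabp1 at position -30, outside the printed stretch, against 13.6% of windows, and AGATAA, known for zinc finger factors of the gut and held by 11.2% of windows, matched in neither gene. The Fabp2 window held none of these letters, which says nothing about which factors bind there.

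The sets were alike in Lgr5, which reached at least 1 TPM in 95.7%, 93.4%, 95.6% and 94.6% of cells of control 1, control 2, HFD 1 and HFD 2. The median number of genes above 0 per cell was 6895, 6130, 6857 and 6348.5, and was not ordered by diet. Rn45s, a ribosomal RNA precursor that shares this fixed total with all other genes, took 39.1%, 24.6%, 26.9% and 18.6% of TPM and was highest in control 1. Cells with at least 3 Paneth cell markers at 10 TPM or more numbered 6, 4, 19 and 14, so that both HFD sets held more of them. Ptprc, the general marker of leukocytes, was at 0 in 3 sets and at 0.011 TPM in HFD 2. Cells of a set are not replicates of a diet, so the set was the unit of comparison. The labels do not say whether sets are separate mice or how cells were grouped for library preparation.

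Fabp1 was detected in more cells and at a higher level per cell in both HFD sets. Its mean was 27.6 TPM in control 1, 52.0 in control 2, 373 in HFD 1 and 459 in HFD 2, with medians of 0, 0, 218 and 310 TPM. Ranked by mean among all genes of its set, Fabp1 stood at places 3481, 1896, 264 and 242. The diets did not overlap, and the mean over sets was 39.8 ± 17.2 TPM (SD, n = 2) on the control diet and 416 ± 61.2 (SD, n = 2) on HFD, a 10.4-fold difference. On the scale of log2(mean TPM + 1) the difference was 3.41, with a pooled SD between sets of a diet of 0.47. These values chose the gene and carry no test.

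The share of cells with Fabp1 at 1 TPM or more separated the diets. It was 37.6% in control 1 (35 cells, 95% exact binomial interval 27.8 to 48.3%) and 49.5% in control 2 (45 cells, 38.8 to 60.1%). HFD 1 reached 80.2% (73 cells, 70.6 to 87.8%) and HFD 2 reached 80.4% (74 cells, 70.9 to 88.0%). The HFD sets were nearly equal and the control sets were both below them, by 36.8 percentage points on average, against a pooled SD of 5.91 points. Among 11667 genes that averaged 1 TPM or more, this was place 1 by rise in share, and the median change over those genes was 0 points, a rank that restates how the gene was chosen. No cell had a value between 0 and 1 TPM, so the cells without Fabp1 were all listed at exactly 0. A 0 in such data can be a transcript that was missed as well as one that was absent, and these intervals cover counting error only.

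Cells with detectable Fabp1 also held more of it under HFD. Their median was 57.2 TPM in control 1, 82.8 in control 2, 313 in HFD 1 and 400 in HFD 2. The mean of log2 TPM in positive cells was 5.59, 6.25, 8.06 and 8.37, a difference between diets of 2.30 with a pooled SD of 0.36. Cells at 100 TPM or more numbered 8, 17, 60 and 62, or 8.60%, 18.7%, 65.9% and 67.4% of each set. The log2 ratio of the mean TPM, 3.45, is the sum of 0.90 from the share of positive cells and 2.55 from the level in positive cells, so that the share made up 26.0% of it. Most of the difference in mean Fabp1 therefore lay in how much each positive cell held.

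**Figure D1:**
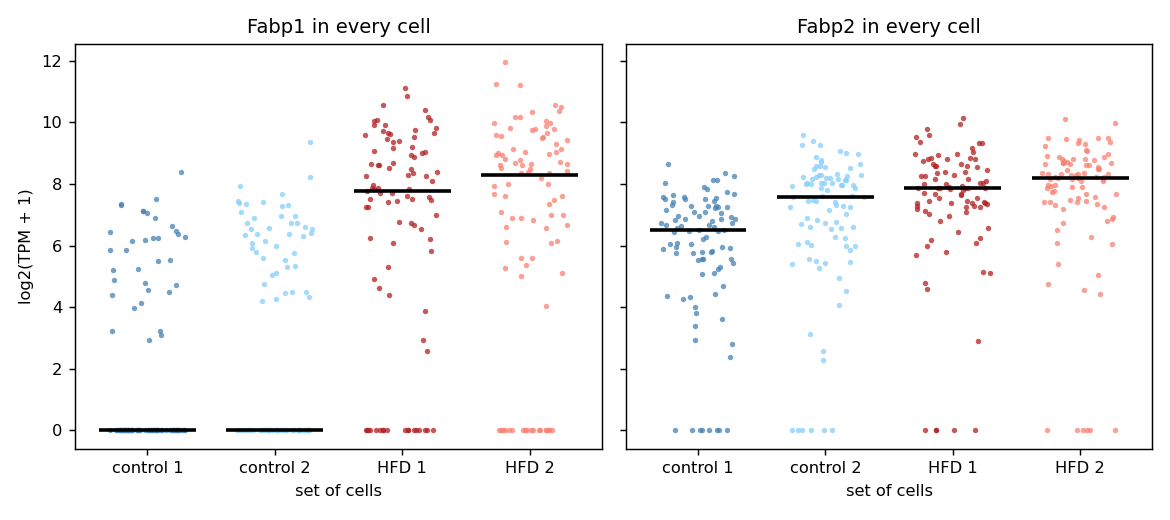
Each point is 1 cell, with Fabp1 on the left and Fabp2 on the right as log2(TPM + 1) by set, and the black bar is the median of the set. The median of Fabp1 lies at 0 in both control sets and far above 0 in both HFD sets, while most cells of every set hold Fabp2.

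Among positive cells the values of Fabp1 were wide in every set. The lowest positive value was 6.63, 17.5, 4.99 and 15.4 TPM and the highest was 336, 659, 2226 and 3945 TPM. The SD of log2 TPM over positive cells was 1.45, 1.18, 1.83 and 1.67, so it was larger in both HFD sets. The 9 highest cells held 57.0% and 47.2% of all Fabp1 transcripts of control 1 and control 2, but 36.2% and 39.4% in HFD 1 and HFD 2. Fabp1 was thus spread over more cells under HFD, and without the highest cell of each set the means were still 24.3, 45.3, 352 and 421 TPM.

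Fabp2, the intestinal-type protein, was found in nearly every cell on either diet. Its share of positive cells was 91.4%, 93.4%, 94.5% and 93.5% in control 1, control 2, HFD 1 and HFD 2, with 95% exact binomial intervals from 83.8% to 98.2% across the sets. The mean was 102 TPM in control 1, 209 in control 2, 276 in HFD 1 and 310 in HFD 2, and the medians were 89.5, 190, 231 and 293 TPM. Both HFD sets lay above both control sets, but control 2 was nearer to HFD 1 than to control 1. Averaged by diet the means were 156 ± 76.2 TPM (SD, n = 2) and 293 ± 23.7 (SD, n = 2), 1.88-fold apart, or 1.0 on the log2(mean TPM + 1) scale with a pooled SD of 0.52. The size of this difference depended on which control set was used, since it was 0.48 without control 1 and 1.52 without control 2.

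For Fabp2 the share of positive cells added little. It differed by 1.59 percentage points (pooled SD 1.13), and by 0.585 without control 1 and 2.59 without control 2. The mean log2 TPM in positive cells was 6.30, 7.26, 7.75 and 8.02, a difference of 1.10 (pooled SD 0.50). That difference was 0.62 without control 1 and 1.58 without control 2. The share made up 2.46% of the log2 ratio of the means. Cells at 100 TPM or more numbered 42, 61, 73 and 77. The 9 highest cells held 26.7%, 26.9%, 28.0% and 24.3% of Fabp2 transcripts. These shares hardly varied among the sets and were below those of Fabp1 in each set. With Rn45s left out and the rest rescaled, the differences between diets were 3.22 for Fabp1 and 0.81 for Fabp2 on the log2(mean TPM + 1) scale.

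**Figure D2:**
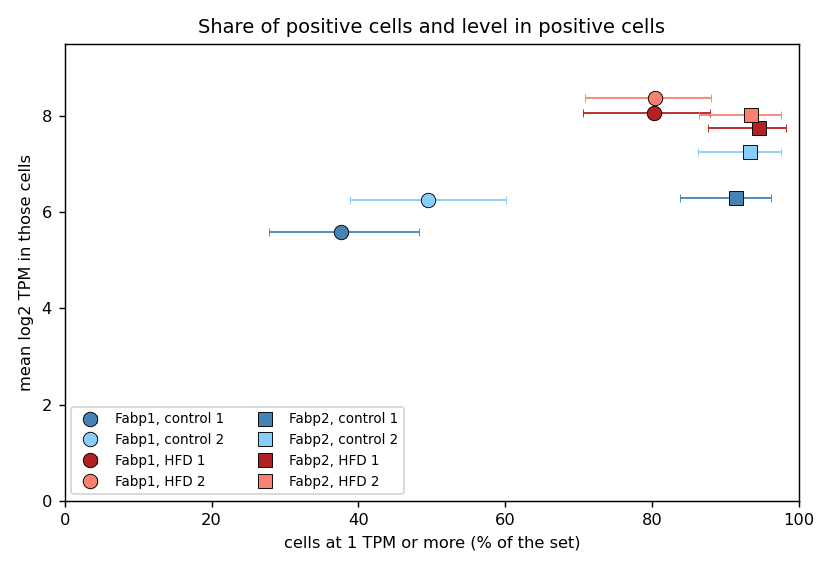
Each point is 1 gene in 1 set, with the percentage of cells at 1 TPM or more (bars, 95% exact binomial interval) on the horizontal axis and the mean log2 TPM of those cells on the vertical axis. Fabp1 moves along both axes between control and HFD sets, whereas Fabp2 stays above 90% of cells and differs along the vertical axis.

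The 8 cells left out held 10 to 977 genes and neither gene in any of them. The cell that passed with the fewest genes, 2217, was from HFD 2 and held 2446 TPM of Fabp1 and 0 TPM of Fabp2.

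Paneth cells, which make antimicrobial peptides beside the stem cells, differed between the diets in the same direction as Fabp1. Of the 8 Paneth markers, 7, 6, 8 and 8 averaged 1 TPM or more in the sets, in the order control 1, control 2, HFD 1, HFD 2, while 0, 2, 0 and 0 were at 0. Their summed level was 73.9, 46.9, 4726 and 471 TPM. Without the cells that held at least 3 of these markers at 10 TPM or more, Fabp1 still differed by 3.46 and Fabp2 by 0.98 on the log2(mean TPM + 1) scale. Within sets, the rank correlation (Spearman's rho) of Fabp1 with the mean log2 Paneth marker level was -0.20, -0.01, -0.14 and 0.12, with no common sign. The summed goblet cell markers, 503, 75.8, 636 and 546 TPM, were lowest in control 2, and their part in the result was not tested.

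The balance between the genes turned over with diet. In part this restates how Fabp1 was chosen, so the ratios carry no test. Mean Fabp1 was 0.272 and 0.248 times mean Fabp2 in control 1 and control 2, and 1.35 and 1.48 times in HFD 1 and HFD 2. In cells positive for both, Fabp1 exceeded Fabp2 in 8 of 32 and 10 of 42 control cells (25% and 23.8%). Under HFD it did so in 46 of 71 and 45 of 71 cells (64.8% and 63.4%). The median log2 ratio of Fabp1 to Fabp2 in these cells was -1.0, -0.90, 0.39 and 0.60. Cell by cell the ratio varied widely, with quartiles of -1.97 and 0.01 in control 1 and of -0.85 and 1.39 in HFD 2.

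Detection of both genes was counted cell by cell. In control 1, 32 cells held both genes, 3 Fabp1 alone, 53 Fabp2 alone and 5 neither. Control 2 had 42, 3, 43 and 3 cells in the same order. HFD 1 had 71, 2, 15 and 3, and HFD 2 had 71, 3, 15 and 3. Cells with Fabp1 alone were thus 2 or 3 in every set, and cells with Fabp2 alone were fewer in both HFD sets. The share with both genes was 34.4%, 46.2%, 78.0% and 77.2%. The product of the shares of each gene was 34.4%, 46.2%, 75.8% and 75.2%. Because Fabp2 was found in nearly every cell, these shares could differ little, so they cannot show whether detection was linked.

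Over all cells, the genes had the higher rank correlation in both HFD sets. Spearman's rho of Fabp1 with Fabp2 over the cells of a set was 0.17 over the 93 cells of control 1, 0.12 over 91 of control 2, 0.54 over 91 of HFD 1 and 0.33 over 92 of HFD 2. The difference between the diet means, 0.29 with a pooled SD of 0.11, gave an exact two-sided permutation p of 0.333 over the 4 sets, the smallest this design can reach. Fabp1 was at 0 TPM in 58 of 93 control 1 cells and 46 of 91 control 2 cells. Under HFD this held for only 18 of 91 and 18 of 92. Such cells share a tied rank, so rho over all cells also depends on how many cells held Fabp1. This difference in rho cannot be told apart from the difference in detection. Cells of a set are not replicates of a diet. Fabp2 followed the number of genes per cell in every set, with rho of 0.32, 0.37, 0.45 and 0.28. Fabp1 had rho of 0.19, -0.03, 0.44 and 0.11 with that number, highest in HFD 1 and negative in control 2. With that number regressed out of the ranks, rho of Fabp1 with Fabp2 was 0.12, 0.14, 0.42 and 0.31. Over the cells positive for both it was 0.19, -0.07, 0.43 and 0.14, lower than over all cells in both HFD sets. There control 1 exceeded HFD 2, so the diets overlapped (exact two-sided permutation p of 0.667 over the 4 sets). The cells were then split into terciles by Fabp2. In HFD 1, Fabp1 was found in 63.3%, 76.7% and 100% of the low, middle and high tercile, and in HFD 2 in 61.3%, 86.7% and 93.5%. In control 1 the shares were 29.0%, 32.3% and 51.6%, and in control 2 they were 15 of 30 cells, 36.7% and 61.3%, without a steady order.

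**Figure D3:**
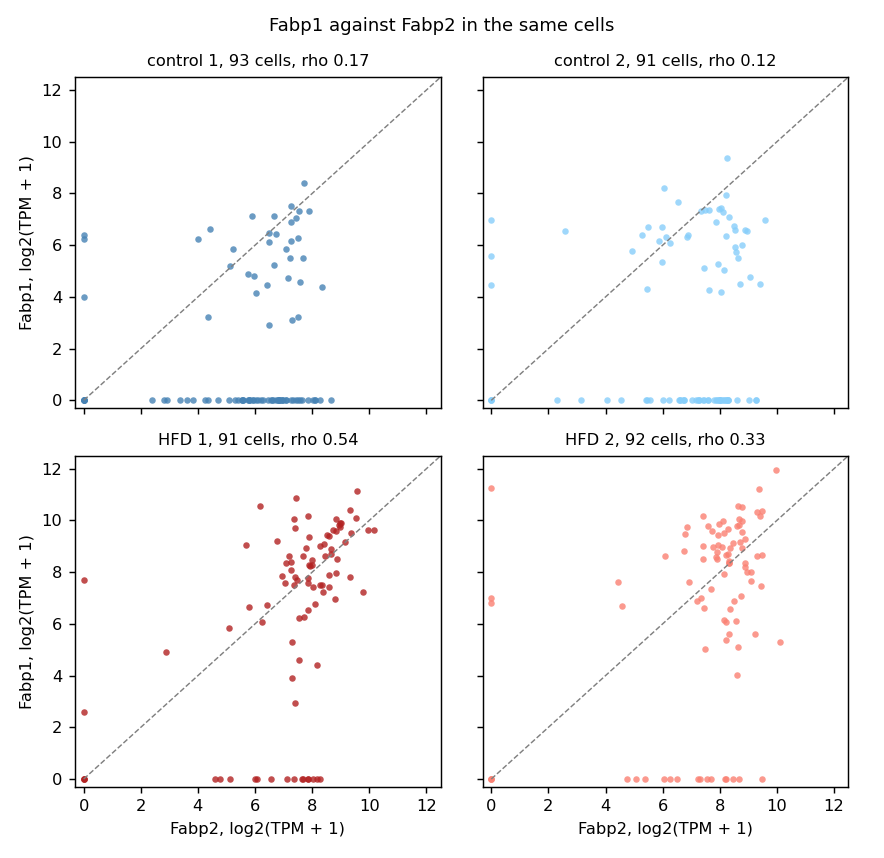
Each panel is 1 set and each point 1 cell, with Fabp2 on the horizontal and Fabp1 on the vertical axis, both as log2(TPM + 1), and the dashed line marks equal values. Control cells lie along the bottom edge or mostly under the line, and HFD cells that hold both genes lie mostly above it, with rho of 0.17 and 0.12 against 0.54 and 0.33.

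Other genes that varied with Fabp1 from cell to cell were sought in each set separately, among the 8978 genes at 1 TPM or more in at least 20% of the cells of every set. The 10 genes with the highest rho in HFD 1 included Tex30, Fabp2, Cpt2, Mad1l1, Snx9, Lace1, Hells, Pex11a and Shmt1. Cpt2, which brings long-chain acyl groups into mitochondrial oxidation, and Pex11a, a peroxisome division factor, belong to fatty acid metabolism. The median rho of the 10 was 0.45 in HFD 1, which chose them, and 0.08 in HFD 2, which did not. In HFD 2, 7 of the 10 were positive, against 52.3% of all genes scanned. The share of all genes that were positive was 67.0% in HFD 1. Tex30 had 0.58 in HFD 1 but 0.16 in HFD 2, -0.05 in control 1 and -0.15 in control 2. Cpt2 had 0.47 in HFD 1 and 0.03 in HFD 2, and Pex11a had 0.43 in HFD 1 and -0.01 in HFD 2. Fabp2, with 0.33, had the highest value of the 10 in HFD 2, where 5% of all genes lay above 0.20 and 5% below -0.18.

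The same held in the control sets. The 10 highest in control 1 were Dmbt1, Blvrb, Slc25a22, Thoc3, Fem1a, Gab1, Arg2, Letm1, Camk1d and Pank1, with a median rho of 0.38 there and 0.08 in control 2. In control 2, 9 of the 10 were positive, against 48.0% of all genes. Dmbt1, a secreted glycoprotein of mucosal surfaces, was the exception in size, with 0.42 in control 1, 0.30 in control 2, 0.36 in HFD 1 and 0.34 in HFD 2. Slc25a22, a mitochondrial glutamate carrier, went from 0.40 in control 1 to 0.10 in control 2 and -0.09 in HFD 1. Over all genes scanned, rho in a set said little about rho in another: the Pearson correlation across genes, which are not independent, was 0.10 between the control sets and 0.20 between the HFD sets.

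At the low end, Ceacam10, of the carcinoembryonic antigen family, had -0.46 in HFD 1 and -0.36 in HFD 2, and -0.26 and -0.09 in control 1 and control 2. Plscr1, Kdm6b, Foxa3 and Il4ra were the other four lowest in HFD 1, and all 5 were negative in HFD 2, where their median was -0.16. Olfm4, a secreted glycoprotein that marks intestinal stem cells, was the lowest in control 1 with -0.39, and had -0.27 in control 2, -0.08 in HFD 1 and -0.17 in HFD 2. Epg5, Sqstm1, Ddx17 and Sypl followed in control 1. Epg5, an autophagy gene, turned sign to 0.24 in control 2, whereas Sqstm1, an autophagy receptor, stayed negative in every set.

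By the mean over the 4 sets, the genes closest to Fabp1 were Dmbt1, Fabp2, Prap1, Gstm3, Acaa2, Car4, Ucp2, Nudc, Atp5j2 and Cox8a. Prap1, a secreted protein of the intestinal epithelium, had 0.18, 0.26, 0.30 and 0.41 in control 1, control 2, HFD 1 and HFD 2. Acaa2, the thiolase that ends each round of mitochondrial fatty acid oxidation, had 0.15, 0.28, 0.34 and 0.31. Atp5j2, of ATP synthase, had 0.21, 0.18, 0.26 and 0.32, and Cox8a, of cytochrome c oxidase, had 0.12, 0.17, 0.28 and 0.39. All 10 were positive in every set, which the choice by the mean favours, and their values were modest. A rho of at least 0.15 in every set was reached by 18 genes, and a rho of -0.15 or lower in every set by 3, Krt18, Atp6ap2 and Serinc3, which were singled out after their values were seen. The sign was positive in all 4 sets for 1078 genes and negative for 499.

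**Figure D4:**
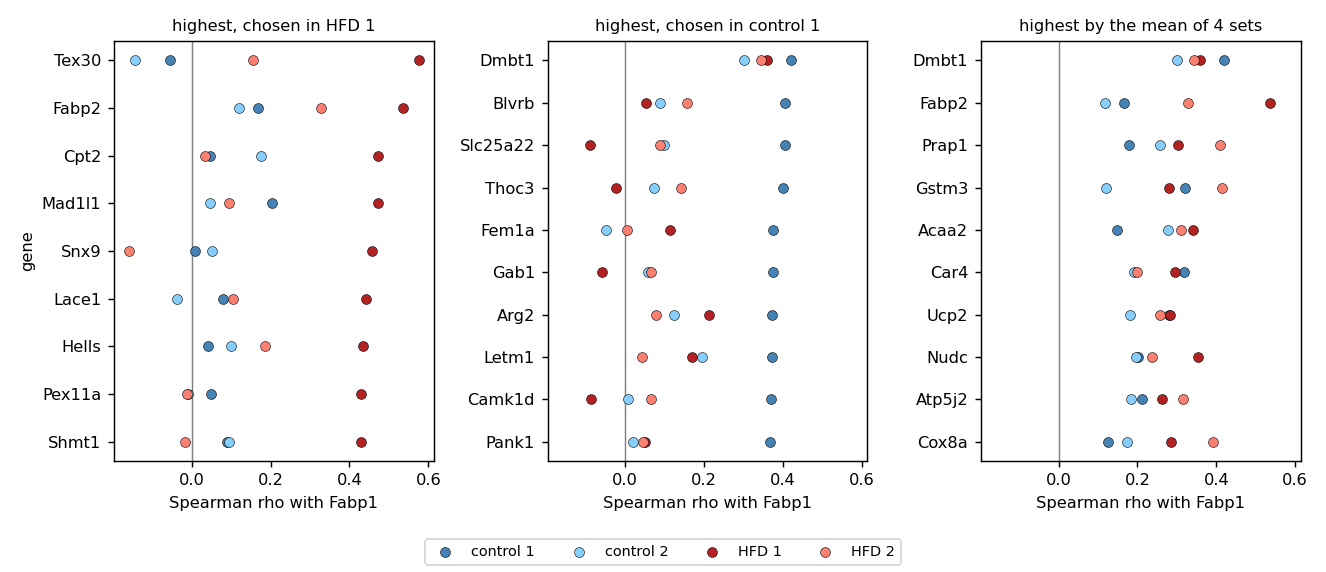
Spearman's rho with Fabp1 over the cells of each set (points, colored by set) for the highest genes chosen in HFD 1 (9 of the 10 drawn), in control 1 (10) and by the mean of the 4 sets (10). In the left and middle panels the set that chose the genes stands apart on the right, and apart from Fabp2 and Dmbt1 the other sets scatter near 0.

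Gene lists were then read against Fabp1 in the same way. Over all 8978 genes scanned, 1078 were positive with Fabp1 in all 4 sets and 499 negative, the background for the list counts that follow. Of the PPAR target and fatty acid oxidation list, 23 of 30 members were scanned. Among these, 14 had a positive rho with Fabp1 in all 4 sets and 1 a negative rho in all 4. The medians of the list were 0.09, 0.08, 0.20 and 0.10 in control 1, control 2, HFD 1 and HFD 2, beside 0.01, -0.01, 0.06 and 0.01 over all genes scanned. The mean log2 level of the list in a cell correlated with Fabp1 at 0.33, 0.17, 0.55 and 0.20, and at 0.33, 0.17, 0.49 and 0.19 with the number of genes per cell regressed out. HFD 1 was the highest and control 1 came next. Brush border and absorptive genes, without Fabp1 and Fabp2, gave 0.25, 0.17, 0.31 and 0.23.

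Stem cell markers ran the other way. All 10 were scanned, 6 were negative with Fabp1 in all 4 sets and 0 positive in all 4, and their mean level gave -0.30, -0.19, -0.06 and -0.11. With the number of genes per cell regressed out these were -0.28, -0.20, 0.03 and -0.12, so that HFD 1 turned sign. Lgr5 itself had -0.17, -0.07, -0.22 and -0.06. MHC class II genes, which present antigen, were also negative: the 4 scanned of 7 had a negative rho in all 4 sets, and the list gave -0.14, -0.09, -0.28 and -0.35, or -0.16, -0.09, -0.18 and -0.35 with that number regressed out. S phase genes, for DNA replication, were positive in all 4 sets for 13 of 16 scanned, and the list gave 0.17, 0.16, 0.38 and 0.15, or 0.08, 0.23, 0.22 and 0.11 with that number regressed out. The S phase level was also higher in both HFD sets, at 4.80 and 4.65 against 3.96 and 3.56 mean log2(TPM + 1), and its part in the difference in Fabp1 was not tested. All of these are ranks over cells of the same set, given as descriptions.

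Genes that varied with Fabp2 were sought in the same way. The 5 genes with the highest mean rho over the sets were H2afz, Idi1, Prdx1, Cmah and Dmbt1. Of all genes scanned, 63.3%, 67.6%, 73.1% and 67.5% were positive with Fabp2 in control 1, control 2, HFD 1 and HFD 2. Fabp2 followed the number of genes per cell in every set, and its partners were not read with that number regressed out. H2afz, a histone variant, had 0.33, 0.41, 0.44 and 0.31, again from control 1 to HFD 2, and Idi1, an enzyme of the mevalonate pathway, had 0.39, 0.29, 0.31 and 0.40. The cholesterol synthesis list followed Fabp2 at 0.36, 0.21, 0.50 and 0.40, and Fabp1 at -0.04, -0.02, 0.33 and 0.07. In each set the value for Fabp2 was the higher. With the number of genes per cell regressed out, the list gave -0.18, -0.01, 0.18 and 0.004 with Fabp1. That was not computed for Fabp2. Dmbt1 was among the closest genes to both.

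The other genes of intestinal fat handling were compared between the diets with limma, a linear model with a shared variance estimate, on log2(mean TPM + 1) of the 4 sets. Of the 11667 genes tested, 59 passed at a Benjamini-Hochberg adjusted p under 0.05, which is 0.506% of all genes, with 43 higher (0.369%) and 16 lower (0.137%) under HFD. Of the 6 lists of fat handling genes together, 90 of 112 members were tested, 1 passed as higher and 1 as lower, or 2.22%. Their median log2 difference was 0.13, beside 0.13 over all genes tested. The count over all genes hung on the scaling and on single sets: it was 6 (5 higher, 1 lower) with Rn45s left out, 44 (27 higher, 17 lower) with sets scaled by the median ratio, 92 without control 1, 148 without control 2 and 98 without HFD 2. The median log2 difference of all genes was -0.05 with Rn45s left out and 0.00 with the median ratio. With none of these changes, 1005 of the 11667 genes had an unadjusted limma p under 0.05 as higher and 289 as lower. These are the background for the list counts that follow, and the 6 lists together had 13 and 5 of 90.

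The other intracellular lipid binding proteins, the family of Fabp1 and Fabp2, were scarce. Their levels summed to 14.9, 31.4, 27.5 and 28.4 TPM in control 1, control 2, HFD 1 and HFD 2, over 13 genes of which 5 or 6 were at 0 in each set. Of these, 4 reached the test and none passed in limma, with 1 at an unadjusted p under 0.05. Rbp2, an enterocyte carrier of retinol, was at 1.08, 5.26, 8.92 and 8.64 TPM, a log2 difference of 1.44 ± 0.45 (SE) with a limma adjusted p of 0.217. That p moved with the set left out, to 0.00239 without control 2 and to 0.911 without control 1. Fabp5, the epidermal type, was at 4.33, 8.54, 8.66 and 6.06 TPM and Rbp7 at 6.63, 14.6, 6.86 and 9.01 TPM, with overlapping diets.

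Genes of fatty acid uptake and activation did not pass in limma for any of 11 tested of 15, with 1 at an unadjusted p under 0.05 and a median log2 difference of 0.25. Dbi, which binds acyl-CoA esters, was at 254, 298, 375 and 518 TPM, higher in both HFD sets (log2 difference 0.68, adjusted p in limma 0.376). Slc27a2, a very long-chain acyl-CoA synthetase, was at 145, 141, 133 and 119 TPM, and Acsl5, a long-chain acyl-CoA synthetase, at 68.1, 83.3, 86.4 and 95.5 TPM. Cd36, the fatty acid translocase, had 0.45, 0.60, 0 and 0.40 TPM and was too low to be tested. Re-esterification and chylomicron assembly had 14 of 15 tested and none passed in limma, with 1 at an unadjusted p under 0.05 and a median of 0.06. Plin2, which coats lipid droplets, was at 100.3, 112, 105 and 113 TPM, and Dgat1, which makes triglyceride, at 79.2, 95.4, 66.6 and 105 TPM, so the diets overlapped. Sar1b, which carries chylomicrons out of the endoplasmic reticulum, was at 69.6, 76.1, 98.7 and 108 TPM, higher in both HFD sets, with an adjusted p of 0.452 in limma.

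Among 28 tested PPAR targets and fatty acid oxidation genes of 30, 1 passed as higher and 1 as lower, with a list median of 0.23. These calls are 7.14% of the members tested, beside 0.506% of all genes tested. An unadjusted limma p under 0.05 was reached by 6 members as higher and 2 as lower, the called genes included. Acaa1b, a peroxisomal thiolase, was at 0.21, 1.36, 6.49 and 6.28 TPM and rose by 2.13 ± 0.46 (SE) on the log2 scale with a limma adjusted p of 0.0277. It was detected at 1 TPM or more in 6.45%, 3.30%, 16.5% and 10.9% of cells. Cyp4a32, a fatty acid hydroxylase, was at 11.4, 16, 4.64 and 3.25 TPM and fell by 1.57 ± 0.36 (SE), with a limma adjusted p of 0.0440. Cyp4a32 has close relatives in its gene cluster, so reads may be split among them and its value is uncertain. The same limit holds for Acaa1b, whose namesake Acaa1a was far more abundant, at 160, 222, 177 and 187 TPM. Both calls were lost with Rn45s left out (limma adjusted p 0.529 and 0.460) and with no filter on low genes (0.668 for both). Acaa1b also lost its call with a pseudocount of 0.1 (0.0578), with the median ratio (0.0657) and with log2 values averaged over cells (0.0668). Among the sets left out, Acaa1b lost it without control 1 (0.142) and Cyp4a32 without control 2 (0.155) or without HFD 2 (0.194). Acaa2 was at 288, 317, 400 and 482 TPM, higher in both HFD sets, and its log2 difference of 0.54 had a limma adjusted p of 0.478. Ucp2, a mitochondrial carrier, was at 506, 277, 441 and 284 TPM and followed the set number rather than the diet.

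Brush border and absorptive genes, which share the enterocyte with Fabp1 and Fabp2, differed as a list by less than the spread between sets. Their mean log2(TPM + 1) per cell was 2.35, 2.39, 2.43 and 2.37, a difference of 0.03 with a pooled SD of 0.04. Of 18 genes, 14 were tested and none passed in limma, where 3 had an unadjusted p under 0.05 as higher and 2 as lower. Prap1 was at 367, 529, 459 and 647 TPM, and Vil1, the microvillus actin bundler villin, at 182, 187, 209 and 199 TPM. Sis, the sucrase-isomaltase of mature enterocytes, had 0.29, 0.97, 2.05 and 3.77 TPM, and Alpi, the alkaline phosphatase of the brush border, had 0.25, 0.67, 1.47 and 0.40 TPM. Sis was low throughout but higher in both HFD sets (log2 difference 1.26, limma adjusted p 0.359). Krt20 (1.17, limma adjusted p 0.441) and Apoa4 (0.79, 0.462) were likewise higher in both HFD sets without passing. Krt20 was low throughout, at 0.39, 0.18, 3.60 and 0.82 TPM. Mep1a (-0.74, limma adjusted p 0.376) and Mep1b (-0.67, 0.558) were lower in both HFD sets, also without passing. Anpep (-0.72, 0.417) was lower on average, with overlapping diets.

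**Figure D5:**
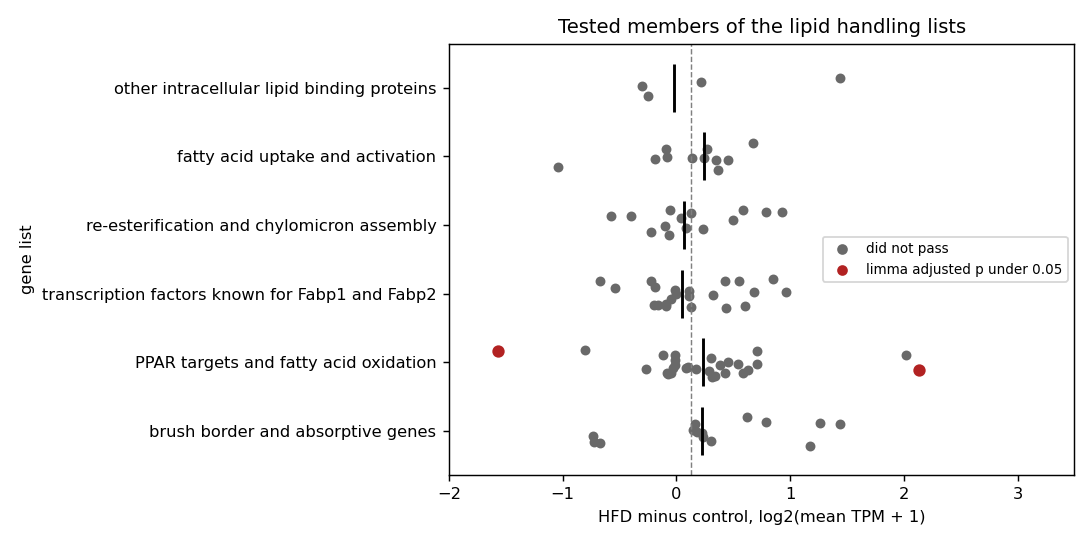
Each point is 1 tested gene of a list, with the difference between HFD and control on the log2(mean TPM + 1) scale, black bars for list medians, the dashed line for the median of all genes tested (0.13) and red for genes past the threshold. Only Acaa1b and Cyp4a32, at 2.13 and -1.57, are red.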

How the data were processed

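The authors deposited TPM values, 1 per gene and cell. Reads were handled with Bowtie2 and RSEM and the build mm10, per the submitters' processing notes; tool versions were not given in the sources used here. TPM keeps no read depth, so depth and its effect on detection are unknown. No cell columns were identical (0), and wells were not screened for doublets. Symbols held by 2 rows were kept apart.

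Cells with at least 2000 genes above 0 TPM were kept and TPM averaged per set. Fabp1 and Fabp2, and the gene lists, were chosen with earlier results of these data known. Genes averaging 1 TPM or more were tested with limma 3.58.1 (R 4.3.3, mean-variance trend, two-sided, pseudocount 1, Benjamini-Hochberg over all genes, threshold 0.05) on log2(mean TPM + 1), which understates changes of low genes. The p-values cover only the spread between these sets, which may be technical. Spearman's rho was computed within sets (scipy 1.17.1). Named genes were the 10 highest and 5 lowest rho with Fabp1 in HFD 1 and in control 1, the 10 highest by mean, the 5 highest with Fabp2, and, per list, called members and the 4 highest by TPM. Lgr5, Ptprc, Cd36, Sis, Alpi, Krt20, Apoa4 and Ppara were added for their roles after their values were seen. Mep1a, Mep1b and Anpep were added, also with values known, as list members that were lower. Both procedures were tested on simulated data. Alternatives covered the cell filter, Rn45s, Paneth marker cells, pseudocount, low-gene filter, scaling, detection thresholds and each set left out. Some genes the rule names are not reported here.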

Additional observations from a re-analysis of the deposited data

How the results depend on the processing

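All alternatives were chosen with the tests, and none was added later. The differences of both genes between the diets in log2(mean TPM + 1), share of positive cells and level in positive cells kept their direction. The ratio of Fabp1 to Fabp2 was not read under the alternatives, and their rho was followed there only as the mean over the 4 sets. Fabp1 differed by 3.41 on the log2(mean TPM + 1) scale, and by 4.0 when log2 values of cells were averaged; leaving out each set gave 2.97 to 3.86. The Fabp2 share difference of 1.59 points was 4.84 points at 10 TPM or more, and 0.585 to 2.59 with each set left out. Mean rho of Fabp1 and Fabp2, 0.29, was 0.17 in cells positive for both. The cause of these shifts was not tested. The 59 genes called by limma became 6 with Rn45s left out and 0 with no filter on low genes, where 1398 of 19092 genes had an unadjusted p under 0.05; with each set left out the count was 81 to 148. Of the fat handling members, 2 were called, 0 with Rn45s left out or no filter, 1 with a pseudocount of 0.1 or the median ratio, and 1 to 3 with each set left out. Diets share the set numbers 1 and 2, but the labels do not say that a number marks a shared batch, and deviations of same-numbered sets correlated at 0.23. With the set number as a replicate block, 635 genes and 11 fat handling members were called, among them Rbp2 (limma adjusted p 0.0414), Dbi (0.0168), Cdx2 (0.0268) and Acaa2 (0.0436), which were not called without it. Of the 24 fat handling genes followed by name, 11 turned sign under some alternative, none of them (0) called. With Rn45s left out, the log2 differences were -0.13 for Plin2, -0.082 for Hnf4a, -0.090 for Cdx1, -0.037 for Vil1 and -0.022 for Khk. The median ratio gave -0.10 for Plin2, -0.028 for Hnf4a and -0.029 for Cdx1. Averaging log2 values of cells gave 0.13 for Rbp7, -0.066 for Fabp5, -0.17 for Plin2, 0.069 for Plin3, -0.21 for Cdx1 and -0.41 for Khk, and Dgat1 had 0.010 without Paneth marker cells. With each set left out, the range was -0.82 to 0.22 for Rbp7, -0.21 to 0.63 for Fabp5, -0.038 to 0.12 for Plin2, -0.38 to 0.27 for Dgat1, -0.31 to 0.18 for Plin3, -0.035 to 0.25 for Hnf4a, -0.058 to 0.27 for Cdx1, -0.54 to 0.35 for Gata5 and -0.51 to 0.35 for Ucp2. Where a set was left out, the lone set of its diet was assumed to vary like the others. Cells kept at 1000 genes were the same cells as at 2000. Sets of 2 per diet and unknown depth limit every comparison, and a gene at 0 TPM in a cell may have been missed.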

Other observations

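Transcription factors known for the promoters of Fabp1 and Fabp2 showed no common relation to Fabp1. Of 24 such genes, 21 were scanned, and 2 were positive and 3 negative with Fabp1 in all 4 sets, with list medians of -0.02, 0.03, 0.00 and 0.02 in control 1, control 2, HFD 1 and HFD 2. Hnf4a, a nuclear receptor of the gut and liver, was abundant at 188, 154, 201 and 167 TPM, and its rho with Fabp1 was 0.19, -0.26, 0.05 and 0.06. Ppara, a fatty acid sensing receptor, was at 12.2, 12.8, 8.74 and 12.7 TPM, with rho of 0.10, 0.04, 0.25 and -0.06. None of the 22 factors tested between the diets passed in limma, where 2 had an unadjusted p under 0.05 as higher and 1 as lower. Cdx2, an intestinal identity factor, was at 123, 70.0, 84.0 and 39.8 TPM, and its limma adjusted p of 0.432 was 0.0427 without control 2 and 0.981 without control 1.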
